A study of Mus musculus with 3 samples.

Results

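DNA replication and mitosis genes are described here as 40 genes taken by name from 50600 annotated genes: 24 of the replication machinery, 2 E cyclins and 14 of entry into and passage through mitosis. All 40 were matched by gene identifier. They were measured by total RNA-seq in primary mouse cells of strain C57BL/6NJ labelled T-helper 1, a kind of CD4 T cell known for interferon gamma. There was 1 group with 3 libraries, replicates 1, 2 and 3, which the labels call biological. Each has its own biosample, and the donor identifier is the same for all 3. Age was unknown and sex was not collected, the linked culture protocol is for differentiation of CD4 T cells, and each table's header carries a time of 0 hours. The linked library protocol is named for poly(A) RNA although the assay label says total RNA. No second group was analysed here, so values are compared between genes and between the 3 libraries. Nothing shows that the replicates are separate animals, so p-values measure the spread between these libraries, which may be technical.

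A resting T cell has left the cell cycle and must rebuild its replication machinery before it can divide. The origin recognition complex, Cdc6 and Cdt1 load the ring of Mcm2 to Mcm7 onto DNA, and Cdc45 and the GINS complex turn that ring into the active helicase. E2F factors drive many of these genes from late G1, while genes of mitosis follow later through the CHR element, and in quiescent cells the DREAM complex holds both sets low. Ki-67 protein, from Mki67, is the usual marker of cycling cells.

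Counts summed to 3647366 in replicate 1, 4305077 in replicate 2 and 2510319 in replicate 3. Replicate 3 stood apart: genes whose exons overlap exons of a gene on the other strand held 76.5% of its counts, against 63.1% and 53.8% in replicates 1 and 2. The tables were counted for fragments whose first read has the gene's strand, per the file headers. Should the kit yield the opposite orientation, a gene's counts would be fragments transcribed from the strand facing it, also for a gene with no annotated overlap, so a level here may not be that of the gene's mRNA. All 8 T cell markers examined, Cd3e, Cd3d, Cd3g, Trac, Trbc2, Cd4, Lck and Thy1, reached 1 TPM (transcripts in each 1000000, from counts divided by exon length and depth) in every library, and their summed counts were lowest in replicate 3 (2507, 3456 and 1331 in each 1000000 counts). Of 6 Th1 genes, Tbx21 and Ifng, the defining factor and cytokine, had 4 counts each in all and Cxcr3 had 0. The other 3 were detected, with 284 counts of Il12rb2, which has exon overlap, 320 of Stat4 and 774 of Il18r1. Of 6 B cell markers Cd79a had 337 counts and the other members at most 2 each, and of 5 myeloid markers Csf1r, which has exon overlap, had 2081 and the other members at most 13 each. The 3 erythroid markers had 0 counts and the 3 NK markers 1 count. Of the cytotoxic T cell genes, Cd8a had 1 count and Cd8b1 had 27, 53 and 17. The part of such cells in the members' counts was not tested. In bulk samples, fewer cycling cells and less RNA per cycling cell cannot be told apart.

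Most replication genes were detected in all 3 libraries, and 7 of the 14 mitosis genes had at most 4 counts in every library. Of 21764 annotated protein-coding genes, 13235 had a count over the 3 libraries and the rest had none. Of the 40 genes, 21 reached 1 TPM in all 3 libraries, and without replicate 3 the number was 28. Of all annotated protein-coding genes, 41.6% reached 1 TPM in all 3 libraries. By list, 15 of 24 replication genes, both E cyclins and 4 of 14 mitosis genes did. The median level of the replication genes, on the log2(TPM + 0.1) scale, was 2.88, 3.45 and 1.90 in replicates 1, 2 and 3, and that of the mitosis genes was −0.15, 0.089 and −1.26. Over all protein-coding genes the medians were −0.46, −0.36 and −1.66, below those of both lists in every library. The replication median exceeded the mitosis median by 3.19 ± 0.17 (SD, n = 3 libraries) on this log2 scale, and by 3.30 ± 0.44 over members without exon overlap. It was 2.20 with a pseudocount of 1 TPM and 0.82 over members with at least 1 TPM in a library. This is a description, with no test over genes.

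**Figure D1:**
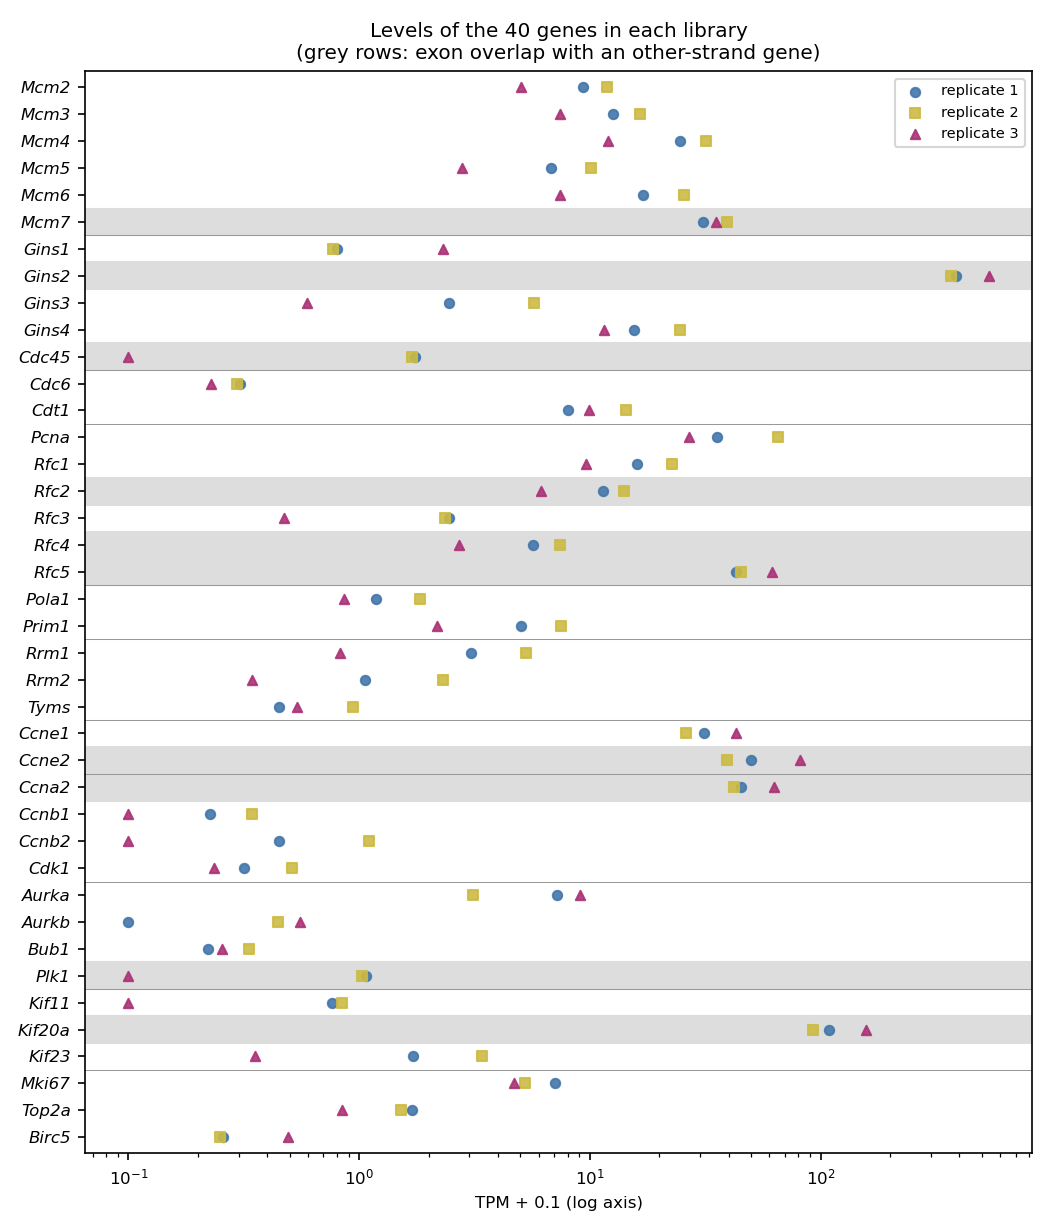
Level of each of the 40 genes in each library as TPM + 0.1 on a log axis, grouped by role (lines), with the 10 genes of exon overlap on grey rows. The genes with the highest levels, Gins2 and Kif20a, lie on grey rows, and Ccnb1, Ccnb2, Cdc45, Plk1 and Kif11 have 0 counts in replicate 3.

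Promoters are shown because the members' known control runs through a few short elements, and because genes with the same letters had unlike levels. RefSeq windows (GRCm38.p6, from 250 bases before to 50 after each start) were found for 31 of the 40 members. The letters searched on both strands were TTTCGCGC, TTTGGCGC and TTTCCCGC for E2F sites, TTTGAA for the CHR element and CCAAT for the CCAAT box that binds NF-Y. In these sequences, bases that precede the start are given 5′ to 3′ on the gene's strand, in capitals where they match on either strand. Mcm6 and Pola1 are replication genes with E2F letters at 16.6 and 1.19 TPM, and Mki67 and Cdk1 are mitosis genes with CHR letters at 5.56 and 0.255 TPM.
Mcm6, chr1:128359706-128359905, minus strand: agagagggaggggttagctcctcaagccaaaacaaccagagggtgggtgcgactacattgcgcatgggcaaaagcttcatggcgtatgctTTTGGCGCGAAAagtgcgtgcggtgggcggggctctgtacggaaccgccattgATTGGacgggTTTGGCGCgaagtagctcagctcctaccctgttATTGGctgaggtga
Pola1, chrX:93632156-93632355, minus strand: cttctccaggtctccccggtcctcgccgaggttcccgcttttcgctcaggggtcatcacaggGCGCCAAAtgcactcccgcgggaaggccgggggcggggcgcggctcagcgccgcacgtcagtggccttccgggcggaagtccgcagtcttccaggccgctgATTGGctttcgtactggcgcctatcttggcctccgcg
Mki67, chr7:135716380-135716579, minus strand: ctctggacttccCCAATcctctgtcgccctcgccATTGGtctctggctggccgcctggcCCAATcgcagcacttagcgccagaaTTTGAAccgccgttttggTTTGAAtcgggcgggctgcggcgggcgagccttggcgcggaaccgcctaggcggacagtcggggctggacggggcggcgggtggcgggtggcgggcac
Cdk1, chr10:69352939-69353112, minus strand: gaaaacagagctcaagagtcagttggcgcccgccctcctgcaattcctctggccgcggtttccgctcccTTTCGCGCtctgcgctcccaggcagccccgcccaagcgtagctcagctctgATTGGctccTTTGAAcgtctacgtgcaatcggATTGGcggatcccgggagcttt

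Positions are counted from the RefSeq start, negative before it, and give the first base of a match. The E2F letters of Mcm6 lie at −110, −106 and −47, where the matches at −110 and −106 overlap on opposite strands. Those of Pola1 lie at −138 and those of Cdk1 at −131. The CHR letters of Mki67 lie at −116 and −98. Those of Cdk1 lie at −71, between CCAAT letters at −80 and −48, and at −15, in a stretch not printed. A match is a description of the letters and no evidence of a bound factor.

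Over all genes with a window, 2.12% held E2F letters, 20.2% CHR letters and 41.1% CCAAT letters. Of the 19 replication genes with a window, 9 held E2F letters, 3 CHR letters and 14 CCAAT letters. Of the 11 mitosis genes, 1 held E2F letters (Cdk1), 8 CHR letters and 10 CCAAT letters, and the same 8 held both CHR and CCAAT letters, against 8.97% of all genes. Among replication genes with E2F letters were Mcm3, Mcm5, Mcm6 and Mcm7, all above 6 TPM, and Rfc3 and Cdc6, at 1.66 and 0.175 TPM. Rfc4, Rfc5, Tyms, Ccne1 and Birc5 held none of the letters in their windows.

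**Figure D2:**
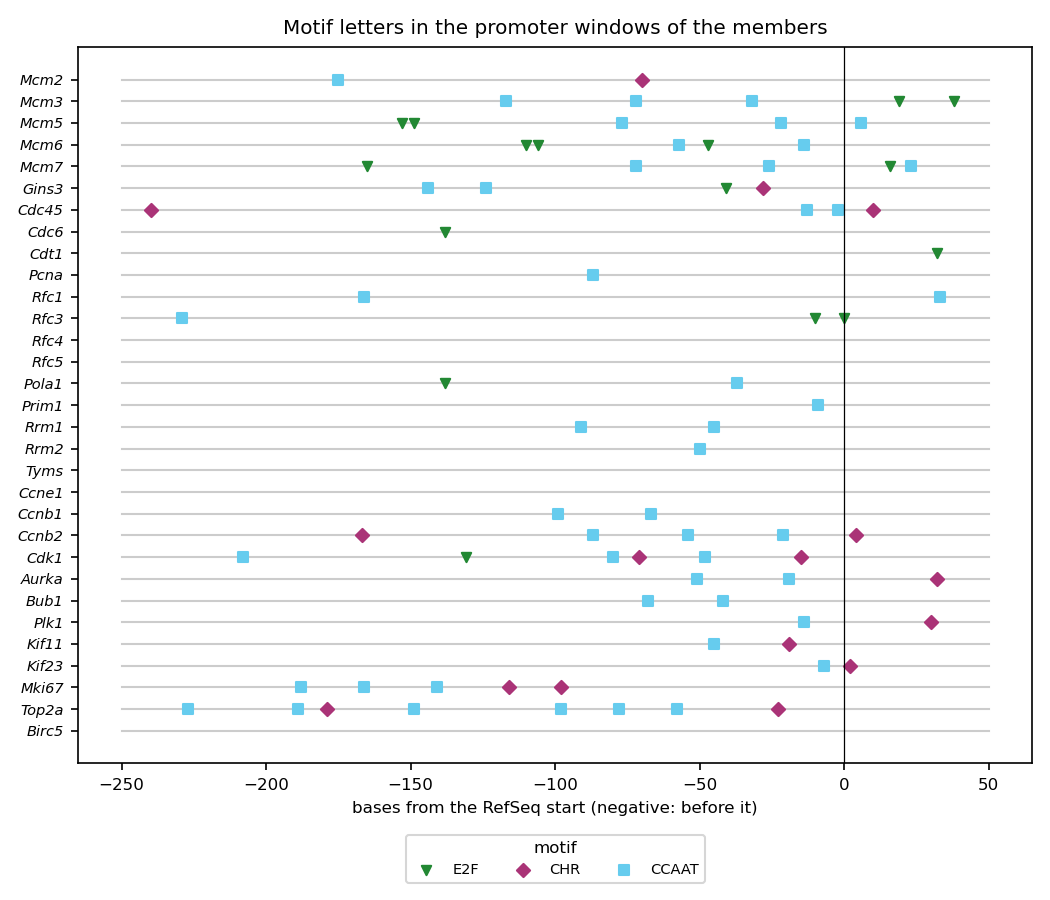
Position, in bases from the RefSeq start, of the first base of each E2F, CHR and CCAAT match in the promoter windows of the 31 members (the first of 2 windows for Mcm7). E2F marks lie mostly in the replication genes at the top and CHR marks mostly in the mitosis genes at the bottom, with both in Cdk1 and Gins3.

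Because of the strand setting, members were separated by their annotation. In 10 of the 40 genes, exons overlap exons of a gene on the other strand: Mcm7, Gins2, Cdc45, Rfc2, Rfc4, Rfc5, Ccne2, Ccna2, Plk1 and Kif20a. These 10 genes held 77.3%, 70.7% and 87.5% of all member counts in replicates 1, 2 and 3, and Gins2 with Kif20a alone held 55.6%, 49.5% and 64.0%. Of the 10, 8 reached 1 TPM in all 3 libraries, against 64.5% of protein-coding genes with exon overlap. Of the other 30, 13 did, against 35.1% of protein-coding genes without it. The median of the members' mean TPM was 42.5 over the 10 genes and 2.28 over the 30. For protein-coding genes the same medians were 7.38 with and 0.123 without overlap.

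The MCM helicase genes were all detected, with Mcm7 the highest and Mcm5 the lowest. Mcm7 (chromosome 5, 138164583 to 138172422, minus strand) stood at 31.0, 39.2 and 35.2 TPM in replicates 1, 2 and 3. It is the member of the ring with exon overlap, of 64 bases with Cops6 and 321 bases with Ap4m1, and its exons also contain Mir25 and Mir93 on the same strand, each with 0 counts. Mcm5 (chromosome 8, 75109569 to 75128439, plus strand) stood at 6.65, 9.97 and 2.68 TPM. In TPM, Mcm7 did not overlap Mcm5 in any library, and Mcm5 was lowest in replicate 3.

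The other ring genes lay between these values. Mcm4 stood at 22.7 ± 10.02, Mcm6 at 16.6 ± 9.15, Mcm3 at 12.1 ± 4.59 and Mcm2 at 8.65 ± 3.49 TPM (SD, n = 3), with replicate 2 highest and replicate 3 lowest in all 4 genes. Between the highest and lowest of the 5 ring genes without overlap, Mcm4 exceeded Mcm5 by a ratio of 3.50 per base over the 3 libraries (453 against 144 counts, 95% exact binomial interval 2.90 to 4.25, counting error only). The ratio was 3.69, 3.18 and 4.45 in replicates 1, 2 and 3. The products assemble as a ring with 1 copy of each subunit, and the counts of their genes were unequal.

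Of the genes that complete the active helicase, Gins2 had the most counts of any member, and it is the one with the longest overlap. Gins2 (chromosome 8, 120578633 to 120589304, minus strand) held 2992, 2962 and 3287 counts, or 388, 369 and 537 TPM. Of its 4097 exonic bases, 2758 (67.3%) lie opposite exons of Gse1, all in an untranslated part of Gins2 and at its 3′ end. Gse1 held 365, 461 and 231 counts over 10351 exonic bases. Per base, Gins2 exceeded Gse1 by 20.7, 16.2 and 35.95 in replicates 1, 2 and 3.

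The other subunits of the same complex were far lower. Gins4, with no other-strand gene within 5 kb, stood at 15.4, 24.6 and 11.4 TPM. Gins3 had 12, 30 and 2 counts, and Gins1 had 2, 2 and 5. Gins2 exceeded Gins4 by a ratio of 23.96 per base (interval 20.1 to 28.8), and Gins4 exceeded Gins3 by 5.80 (interval 4.08 to 8.36). Cdc45, whose first exonic bases lie opposite Ufd1 over 209 bases, had 7, 7 and 0 counts, where 3 counts in replicate 3 would be 0.891 TPM. Thus exon overlap did not go with a high count in every member.

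The loaders of the MCM ring differed from each other. Cdt1 stood at 7.95, 14.3 and 9.80 TPM with 47, 88 and 46 counts. Cdc6, its partner in loading, had 2, 2 and 1 counts. Over the 3 libraries Cdt1 exceeded Cdc6 by a ratio of 60.3 per base (181 against 5 counts, interval 25.4 to 188).

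The sliding clamp and most of its loader were detected. Pcna, the clamp that holds polymerases on DNA, was the highest replication gene without exon overlap, at 35.4, 65.5 and 26.8 TPM (chromosome 2, 132249162 to 132253314, minus strand). Rfc1, the large loader subunit, stood at 16.1 ± 6.54 and Rfc2 at 10.4 ± 4.01 TPM. Rfc5 stood at 43.0, 45.3 and 61.2 TPM, with 499 bases opposite Wsb2, while Rfc4, with 194 bases opposite Eif4a2, stood at 5.54, 7.32 and 2.62 TPM. Rfc3 was the lowest, with 16, 16 and 2 counts. Rfc5 was highest in replicate 3 and the other 4 loader genes were lowest there.

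Primase and nucleotide synthesis genes were low. Prim1, the catalytic primase subunit, stood at 4.94, 7.39 and 2.08 TPM, and Pola1, the catalytic subunit of polymerase alpha, at 1.08, 1.74 and 0.759 TPM. Of ribonucleotide reductase, which makes deoxynucleotides, the large subunit gene Rrm1 stood at 2.94, 5.19 and 0.729 TPM and the small subunit gene Rrm2 had 5, 12 and 1 counts. Rrm1 exceeded Rrm2 by a ratio of 2.59 per base (185 against 18 counts, interval 1.59 to 4.46). Tyms, which makes thymidylate, had 4, 10 and 4 counts.

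Both E cyclin genes, whose products switch on Cdk2 at the start of S phase, were highest in replicate 3. Ccne2 (chromosome 4, 11191351 to 11204779, plus strand) stood at 49.9, 39.3 and 81.4 TPM, with 609 bases opposite Ints8. Ccne1 (chromosome 7, 38097984 to 38107534, minus strand) stood at 31.1, 25.9 and 42.7 TPM, and no annotated gene lies on the other strand within 5 kb. The order of the libraries was the same in both genes, with replicate 2 lowest.

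Among A and B cyclins and their kinase, a single gene had more than 4 counts in a library. Ccna2, the cyclin of S phase and G2, had 348, 336 and 384 counts, or 45.3, 42.0 and 62.9 TPM (chromosome 3, 36564865 to 36572150, minus strand). Its 3′ end lies opposite Exosc9 over 510 bases, all untranslated. Ccnb1 and Ccnb2, the mitotic cyclins, had 1, 2 and 0 and 1, 3 and 0 counts, and Cdk1, the kinase that drives mitosis, had 2, 4 and 1. Ccna2 exceeded Cdk1 by a ratio of 184 per base (1068 against 7 counts, interval 89.2 to 460). In replicate 3, 3 counts would be 0.476 TPM for Ccnb1 and 1.31 TPM for Ccnb2.

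The mitotic kinases and Bub1 were near 0 apart from Aurka. Aurka, which acts at spindle poles, had 34, 15 and 34 counts, or 7.14, 3.02 and 8.99 TPM. Aurkb, the kinase of the chromosomal passenger complex, had 0, 2 and 2 counts, Bub1, of the spindle checkpoint, 1, 2 and 1, and Plk1, which has 156 bases opposite Gm44985, 4, 4 and 0. The counts of Aurka were lowest in replicate 2, the deepest library. Aurka has no exon overlap, and Cstf1 and Fam210b start or end on the other strand 146 and 441 bases away.

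Of the mitotic kinesins, Kif20a alone was high. Kif20a (chromosome 18, 34624624 to 34633265, plus strand), which acts in cytokinesis, had 779, 686 and 889 counts, or 109, 92.2 and 157 TPM. Of its exonic bases, 1259 (33.2%) lie opposite Cdc23, which had 146, 201 and 73 counts. Per base, Kif20a exceeded Cdc23 by 13.4, 8.54 and 30.5. Kif23, which acts at the same midzone, had 24, 51 and 3 counts and Kif11, which separates spindle poles, 6, 7 and 0. Kif20a exceeded Kif23 by a ratio of 62.8 per base (interval 50.1 to 79.8).

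Mki67 and Top2a were detected at low levels. Mki67 had 132, 101 and 69 counts, or 6.97, 5.12 and 4.59 TPM, and Top2a, the topoisomerase that untangles replicated chromosomes, 27, 25 and 10 counts, or 1.59, 1.42 and 0.742 TPM. Mki67 exceeded Top2a by a ratio of 4.36 per base (interval 3.31 to 5.83). Birc5, which encodes survivin of the chromosomal passenger complex, had 1, 1 and 2 counts. Replicate 3 was lowest in TPM for Mki67 and Top2a. Birc5 had too few counts to order the libraries.

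**Figure D3:**
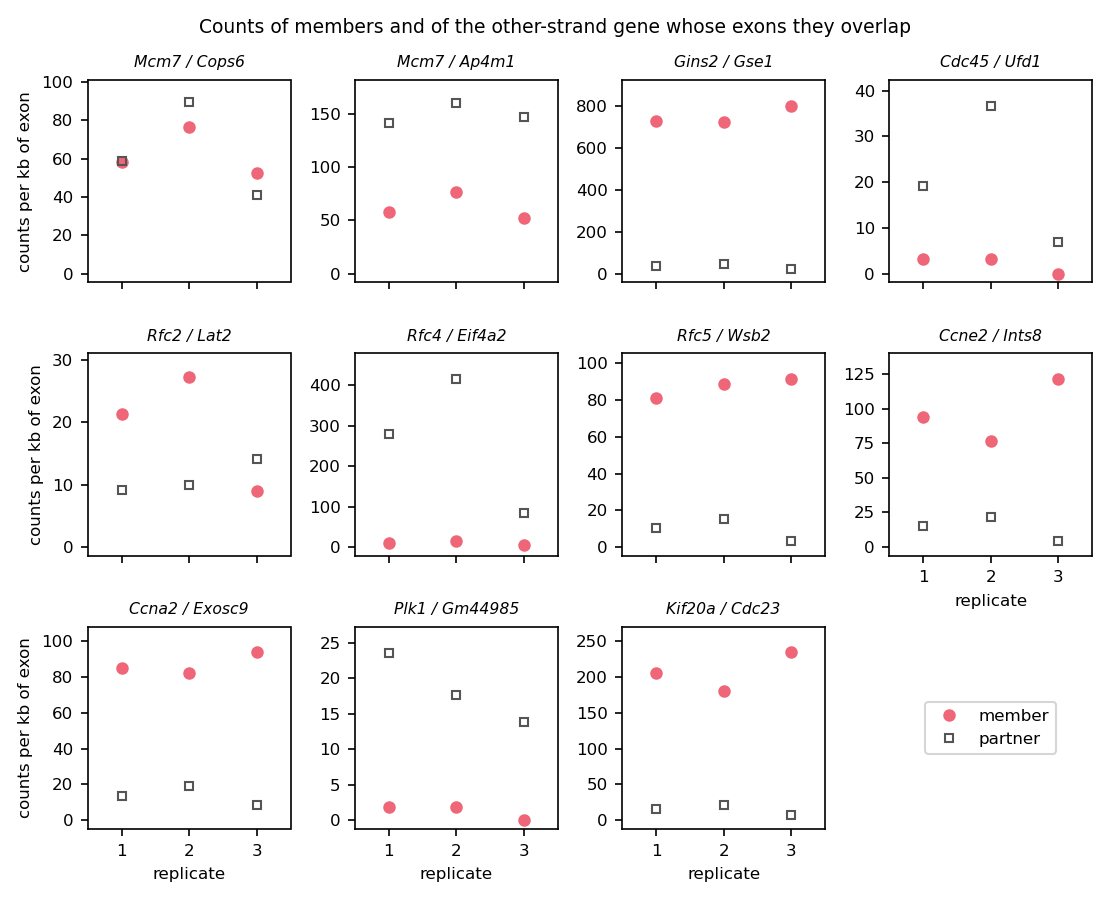
Counts per kb of exon in replicates 1, 2 and 3 for each member with exon overlap (filled circles) and for the other-strand gene it overlaps (open squares), in 11 pairs. In 5 pairs, those of Gins2, Rfc5, Ccne2, Ccna2 and Kif20a, the member lies above its partner in all 3 libraries.

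The 10 overlapping members differed in how they compared with their partners. Gins2, Rfc5, Ccne2, Ccna2 and Kif20a had more counts per base than the other-strand gene in all 3 libraries, and these 5 genes overlap it with their 3′ ends, as 8 of the 10 overlapping members do. The ratio of Rfc5 to Wsb2 was 7.77, 5.77 and 28.2, that of Ccne2 to Ints8 6.26, 3.53 and 29.3, and that of Ccna2 to Exosc9 6.27, 4.35 and 11.4. In each of these 5 pairs the ratio was highest in replicate 3, as were the ratios of Mcm7 to Cops6 and of Rfc4 to Eif4a2. Mcm7 was at 0.995, 0.858 and 1.28 of Cops6 and at 0.410, 0.479 and 0.357 of Ap4m1. Plk1 was at 0.0770, 0.103 and 0 of Gm44985. Rfc4 was at 0.0375, 0.0346 and 0.0460 of Eif4a2, a translation factor gene, and Cdc45 at 0.162, 0.0848 and 0 of Ufd1. Rfc2, with 952 bases opposite Lat2, was above Lat2 in replicates 1 and 2 (2.32 and 2.75) and below it in replicate 3 (0.641). Whether the overlap produced any of these counts was not tested.

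The next comparison asked which members varied between the libraries beyond counting error. A Poisson chi-square test over 10662 genes, on library sizes from TMM (edgeR's trimmed-mean scaling) with Benjamini-Hochberg adjustment, called 13 of the 23 members that passed the count filter. It called 62.4% of all genes tested, so the members' share is near the background. Another 17 members did not pass the filter, 9 of them of mitosis. This filter asks for a minimum in every library. Some members low in replicate 3, such as Kif23 with 24, 51 and 3 counts, were therefore not tested. Of the 23 tested members, 10 were called with replicate 3 highest, against 32% of all genes tested, and 2 with it lowest, against 27.3%. Pcna was called with replicate 3 between the other libraries. Among called genes alone, replicate 3 was highest in 10 of 13 members and in 51.4% of all genes. Without replicate 3, 9 of 27 members tested were called, against 28.1% of all genes. With no count filter, 16 of 40 members were called, against 42.6% of 19958 genes. Replicate 3 was highest in 11 of these 16 and lowest in 4, against 4144 and 3765 of the 8500 genes called.

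Of the 7 members with exon overlap that were tested, 6 were called, against 74.7% of tested genes with overlap. Replicate 3 was highest in all 6 of these, a direction called in 57.5% of tested genes with overlap. They were Gins2, Kif20a, Ccne2, Ccna2, Rfc5 and Mcm7. Gins2 stood at 784, 549 and 1780.0 CPM (counts in each 1000000 of the TMM library size) in replicates 1, 2 and 3. Kif20a stood at 204, 127 and 481 CPM (Poisson test with Benjamini-Hochberg adjustment, adjusted p = 9.6e-176), Ccne2 at 86.0, 49.9 and 230.1 (adjusted p = 4.85e-105, same test), and Mcm7 at 67.6, 63.0 and 126.2 (adjusted p = 8.77e-17, same test). Without replicate 3, Mcm7 was not called (adjusted p = 0.552, same test). In these 6 genes replicate 2 was lowest and replicate 3 highest on this scale. Rfc2, the other tested member with overlap, was at 35.1, 31.9 and 30.9 CPM and was not called (adjusted p = 0.661, same test).

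Of the 16 tested members without exon overlap, 7 were called, against 53.7% of tested genes without overlap. On the TMM scale 4 of the 16 were called with replicate 3 highest, Ccne1, Aurka, Mki67 and Cdt1, and 14% of tested genes without overlap were called that way. Ccne1 stood at 40.9, 25.0 and 92.0 CPM (Poisson test with Benjamini-Hochberg adjustment, adjusted p = 4.99e-32), and Aurka at 8.91, 2.78 and 18.4 CPM (adjusted p = 3.73e-10, same test). Mki67 stood at 34.6, 18.7 and 37.4 CPM (adjusted p = 1.82e-06, same test) and Cdt1 at 12.3, 16.3 and 24.9 CPM (adjusted p = 0.005, same test). Scaled to total counts, replicate 3 lay between the other libraries in both genes, at 36.2, 23.5 and 27.5 CPM for Mki67 and 12.9, 20.4 and 18.3 CPM for Cdt1, and stayed highest in Ccne1 and Aurka. In TPM, Mki67 was lowest in replicate 3, at 4.59. The call was lost without replicate 2 for Mki67 (adjusted p = 0.780, same test) and without replicate 3 for Cdt1 (adjusted p = 0.263, same test). Replicate 3 was lowest in Rrm1, at 15.99, 20.8 and 6.50 CPM (adjusted p = 0.000523, same test), and in Mcm6, at 39.1, 43.4 and 27.6 CPM (adjusted p = 0.0226, same test), and 35.7% of tested genes without overlap were called that way. The call of Mcm6 was lost with DESeq2 size factors (adjusted p = 0.075, same test), with TMM over genes without overlap (0.422) and without replicate 3 (0.519). That of Rrm1 was lost without replicate 3 (adjusted p = 0.231, same test). Pcna was lowest in replicate 1, at 41.95, 57.1 and 52.0 CPM (adjusted p = 0.0122, same test), and with total counts in replicate 3, at 43.9, 71.5 and 38.2 CPM. Its call was lost without replicate 1 (adjusted p = 0.666, same test) and without replicate 2 (0.207). Mcm2, Mcm3, Mcm4, Mcm5, Gins4, Rfc1, Pola1, Prim1 and Top2a did not pass, which does not show that they were equal. With library sizes set by total counts, 20 of the 23 members were called, against 82.5% of all genes. Of the 23, 8 were called with replicate 3 highest, against 22.4%, and 10 with it lowest, against 56.4%.

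For the median of the members without exon overlap, whether replicate 3 lay above or below replicate 2 depended on the scaling. The log2 count ratio of replicate 3 to replicate 2, scaled to total counts, had a median of 0.82 over 9 members with exon overlap and at least 10 counts, and of −0.88 over 22 members without. The gap between these medians was 1.71, which a scaling of whole libraries does not change. Over protein-coding genes with at least 10 counts the medians were −0.54 for 3538 genes with overlap and −1.21 for 7420 without. TMM scaling moved the median ratio of all 14096 genes with at least 10 counts from −0.87 to −0.11. The median of the members without overlap then became −0.12, and with TMM taken over genes without exon overlap, an alternative added after the data were seen, 0.21. Under these scalings the median of the members with overlap stayed above 0, at 1.59 and 1.91. On the total-count scale, members without overlap but with a ratio above 0 were Aurka at 1.93, Ccne1 at 1.11 and Mki67 at 0.23. Members with overlap and a ratio below 0 were Rfc4 at −1.01, Rfc2 at −0.81 and Cdc45, whose ratio is not given as a value because replicate 3 had 0 counts. Among members without overlap, Kif23 (51 against 3 counts) stood at −3.10 and Gins3 (30 against 2 counts) at −2.83, and Kif11 had 7 against 0 counts. With so few counts these ratios depend on the 0.5 added to each count.

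**Figure D4:**
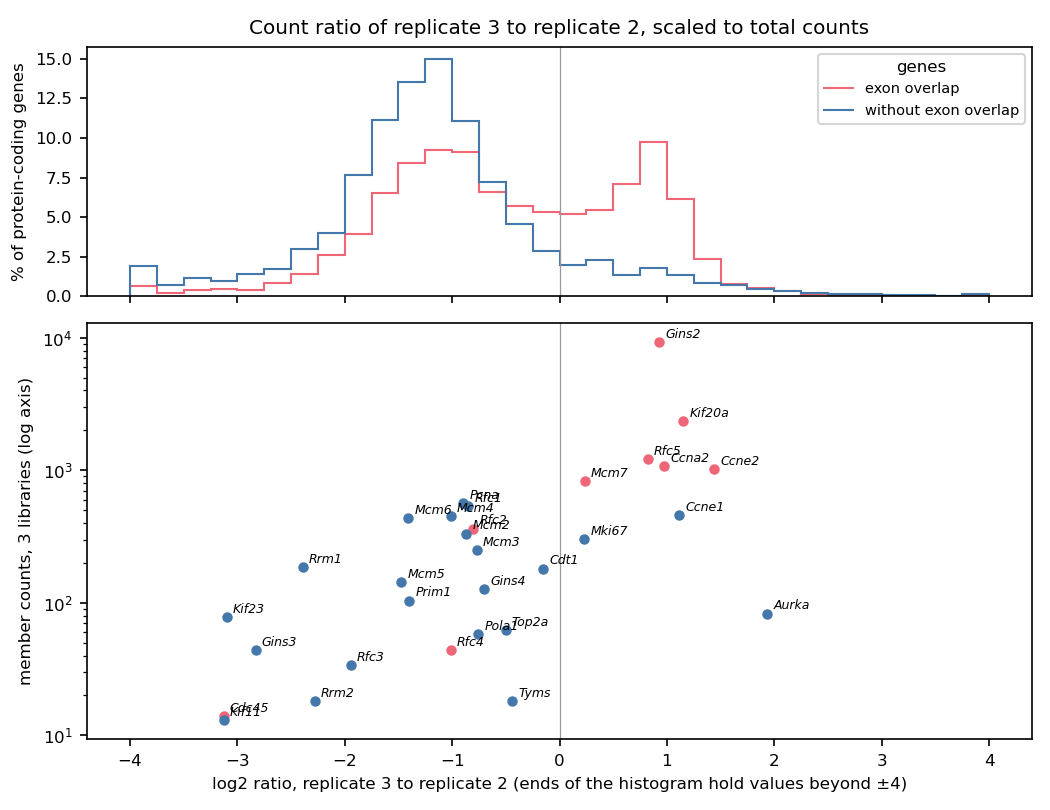
Above, the share of protein-coding genes (percent, bins of 0.25) at each log2 count ratio of replicate 3 to replicate 2, for genes with and without exon overlap. Below, the same ratio for the 31 members with at least 10 counts against their summed counts on a log axis; Gins2, Kif20a, Ccne2, Ccna2 and Rfc5 lie to the right, with Ccne1 and Aurka, and most other members to the left. Cdc45 and Kif11, with 0 counts in replicate 3, are placed by the 0.5 added to each count.

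Other genes of the cell cycle, from a list chosen with earlier results of these data known, also stood higher for origins and forks than for mitosis. Of 31 further genes of origins and forks, 24 reached 1 TPM in all 3 libraries, and their median of mean TPM was 7.68 (6.65 over the 20 without exon overlap). Of 35 further mitosis genes 13 did, with a median of 0.970 TPM (0.453 over the 27 without overlap). Of all protein-coding genes 41.6% did, with a median of 0.603 TPM (0.123 over those without overlap). The highest of the first list were Orc3, of the origin recognition complex, at 54.8 ± 3.51, Rpa1, which coats single-stranded DNA, at 43.7 ± 28.3 and Tk1, the thymidine kinase gene, which has overlap, at 26.6 ± 7.46 TPM. Of the mitosis list they were the condensin gene Smc4 at 207 ± 110.0 TPM, and Kif22 and Prc1, both with overlap, at 49.7 ± 12.7 and 16.1 ± 1.71 TPM (SD, n = 3). Smc4 has no exon overlap and held 1953, 3269 and 783 counts. Ttk, a kinase of the spindle checkpoint, had 0 counts and was the only one of the 35 with none.

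Of these origin, fork and mitosis genes and of 18 E2F and DREAM genes, 50 passed the count filter and 29 were called between libraries by the Poisson test with Benjamini-Hochberg adjustment, against 62.4% of all genes tested. Of the 21 tested genes with exon overlap 15 were called (74.7% of all such genes were). Replicate 3 was highest in 10 of the 21, a direction called in 57.5% of all such genes. Among these 10 were Tk1, Kif4, Kif22, Prc1, Cdca8, Nusap1, Ncapg, E2f5 and Rb1. Orc6, Timeless, Rbl2 and Rbbp4 were lowest there, as were 15.3% of all such genes, and Orc4 lay between. Of the 29 without overlap 14 were called (53.7% of all such genes were), and these shares are near the background. Replicate 3 was lowest in 11 of the 29, a direction called in 35.7% of all tested genes without overlap. They were Dbf4, Cdc7, Rpa1, Pold1, Wdhd1, Chaf1b, Bub3, Smc2, Smc4, E2f4 and Tfdp1. Orc3, Pole2 and Kif15 were highest there, as were 14% of all tested genes without overlap.

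The E2F family and the DREAM complex differed by member. E2f1, E2f2, E2f3, E2f6, E2f7, E2f8 and Rbl1 are named after their values were seen. The activator E2f1, without overlap, had 7, 2 and 1 counts. Other family members without overlap had more: E2f2 had 29, 59 and 26 counts, E2f3 8, 32 and 3, and E2f6 42, 73 and 14. The repressors E2f7 and E2f8, both with exon overlap, had 0 and 4 counts in all. E2f4, a repressor E2F of the DREAM complex, stood at 33.5 ± 18.5 TPM without overlap. The pocket protein genes Rb1 and Rbl2, both with exon overlap, stood at 93.9 ± 2.89 and 24.7 ± 12.5 TPM, and Rbl1 without it at 10.3 ± 5.22 TPM (SD, n = 3). E2f5, with overlap, stood at 36.2 ± 8.66 TPM, so that Rb1, E2f5 and E2f4 were the highest of the 18.

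**Figure D5:**
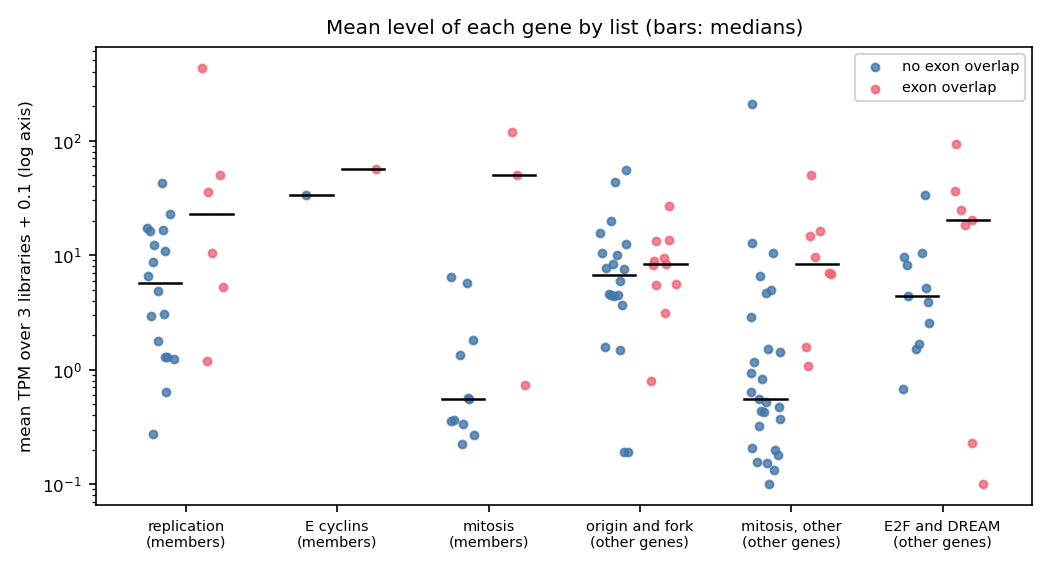
Mean TPM over the 3 libraries plus 0.1 on a log axis for each member and for each gene of the other cell cycle lists, with bars at the medians of genes with and without exon overlap. Mitosis genes without overlap lie mostly under 1 TPM in both the members and the further list, with Smc4 at 207 TPM as the highest.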

How the data were processed

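The deposited tables hold raw counts of read pairs per gene. Per the file headers, the authors ran featureCounts 1.4.6-p4 at strand setting 1 against GENCODE M13, with both ends required to map and multi-mapping pairs not requested, so near-identical copies may be undercounted. The build, mm10, is per the labels, and the alignment file is named for STAR, per the file headers. Aligner version, trimming and library kit: not given in the sources used here. Exon length is the authors' deposited value, per the file headers.

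Symbols and biotypes were looked up in GENCODE M21, where 50376 of 50600 gene identifiers matched. Exon overlap was computed from the deposited coordinates (1 base or more). TPM, and log2 values of them, were computed here from the deposited counts. TMM sizes and the count filter (filterByExpr) came from edgeR 4.0.16, alternative size factors from DESeq2 1.42.0, and the chi-square test (2 degrees of freedom, adjusted p under 0.05) from scipy 1.17.1, checked on simulated data. The simulated counts held Poisson error only, so the check does not cover other spread between libraries. The test compares libraries, not conditions. Intervals are exact Clopper-Pearson at 95%. Intervals and the floor of 3 counts cover counting error only. Named genes were the highest and lowest of each role group, all with exon overlap and all called by the test, and of the other lists the 3 highest and all called. The members and lists were chosen with earlier results of these data known. Some genes of the other lists are not reported here.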

Additional observations from a re-analysis of the deposited data

How the results depend on the processing

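Alternatives moved several medians and the sign of 1 result; the causes were not tested. With replicates left out in turn, 21 to 28 members reached 1 TPM, 9 to 12 members and 3302 to 6377 genes were called (3302 without replicate 3), and the replication minus mitosis difference stayed between 3.10 and 3.26. On log2(TPM + 0.1), the median of all members (2.07) became 3.07 over members with 1 TPM in a library, 3.09 as log2 CPM and 0.92 without exon overlap. That of replication members (2.75) became 3.67 as log2 CPM, and that of mitosis members (−0.44) became 0.74 with a pseudocount of 1 and 2.27 over members with 1 TPM in a library. Their difference (3.19) became 2.20, 0.82 and 3.40 with a pseudocount of 1, over members with 1 TPM in a library and as log2 CPM. Scaling to total counts gave 20 members called in place of 13, and 8797 of all genes in place of 6649. The log2 ratio of replicate 3 to 2 for members with exon overlap (0.82) became 1.59 (TMM), 1.69 (DESeq2 factors), 1.91 (TMM over genes without overlap, added after the data were seen) and 0.53 (no count minimum). Without overlap (−0.88) it became −0.12, −0.015 and, reversed, 0.21 under the same 3 scalings. The difference (1.71) became 1.36 with no count minimum. Of single-gene calls under the alternatives, 145 stayed, 7 gained and 9 lost significance. No paired analysis was possible because there is 1 group. Under 3 counts in a library, as in 14 of 40 members, depth limits any level.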
